A study of Homo sapiens with 16 samples.

Results

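The NADPH oxidase subunits described here are CYBB, CYBA, NCF1, NCF4 and RAC2. They are the 5 rows, out of 62700 in the deposited table of normalized counts, whose Ensembl identifiers map to these symbols, and all 5 passed the filter on low values (mean normalized count of 10 or more). The libraries came from OCI-AML3, an established acute myeloid leukemia cell line. There were 4 untreated libraries and 3 for each of 4 treatments, all taken at 3 h: ATRA (all-trans retinoic acid, 0.1 µM), AM80 (tamibarotene, 0.1 µM), ATRA_GSK-LSD1_MB3 and AM80_GSK-LSD1_MB3. GSK-LSD1 (0.1 µM) inhibits the histone demethylase LSD1 and MB3 (100 µM) inhibits the histone acetyltransferase GCN5. The last 2 groups are called the ATRA combination and the AM80 combination. None of the libraries had the inhibitors alone, so the inhibitors were measured only beside ATRA or AM80 and the parts of GSK-LSD1 and MB3 cannot be told apart. The controls are named as untreated and no solvent is given for them. The cell line is a single genetic background, and nothing states that the replicates were separate cultures, so the p-values measure the spread between these libraries, which may be technical.

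The phagocyte NADPH oxidase makes superoxide from oxygen, taking electrons from NADPH on the inner side of the membrane and passing them across it. CYBB (gp91phox, NOX2) is its catalytic chain and CYBA (p22phox) is the membrane partner that stabilises it. NCF1 (p47phox) and NCF4 (p40phox) wait in the cytosol, and NCF1 brings the complex to the membrane once it is phosphorylated, while the GTPase RAC2 joins it in its active form. Neutrophils and macrophages use the oxidase to kill microbes, and inherited loss of CYBB, CYBA, NCF1 or NCF4 causes chronic granulomatous disease. ATRA activates all retinoic acid receptors and AM80 is selective for RARA.

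Reads counted on genes ranged from 11963898 to 33789718 per library, and the 5 subunits together drew on 698 to 13963 reads per gene and library. All 8 myeloid marker genes fixed for the cell type were measured, with a summed level of 29873 to 37605 normalized counts. Of 5 lymphoid markers, 2 had a mean of at least 10, and the summed level was 55.8 to 97.6. Of 4 erythroid and platelet markers 1 did (ITGA2B, sum 20.6 to 39.8), and of 2 epithelial markers none did (sum 0.0 to 1.1). Among 4 fibroblast and endothelial markers, PECAM1 and COL1A2 were measured and the sum was 1049 to 2847, PECAM1 being also a gene of myeloid cells. In bulk libraries, fewer cells of a type and less RNA per cell cannot be told apart.

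NCF1 is shown first by sequence, because its near copies decide how far its count can be read. NCF1 lies at chr7:74773962-74789315 on the plus strand of GRCh38, and the pseudogenes NCF1B (chr7:73220624-73235945) and NCF1C (chr7:75156639-75172044) lie on the same chromosome. The main NCF1 transcript of GENCODE 29 and that of NCF1C were identical at 99.43% of 1394 aligned bases, with 8 substitutions. A difference between the gene and this copy is the loss of 1 GT from a GTGT pair in the coding sequence. Both stretches are printed 5′ to 3′, bases 116 to 171 of the NCF1 transcript and 147 to 200 of the NCF1C transcript, with the GT repeat in capitals.
NCF1: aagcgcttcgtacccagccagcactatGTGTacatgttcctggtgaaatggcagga
NCF1C: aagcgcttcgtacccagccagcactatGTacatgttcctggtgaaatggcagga
Reads were 51 bases long by the sequencing mode given in the methods. Of 1346 windows of 51 bases in the NCF1 transcript, 430 (31.9%) were absent from every NCF1C transcript and 214 (15.9%) were absent from every transcript of NCF1B and NCF1C. How reads that fit several genes were counted is not given in the sources used here, so the split of reads between NCF1 and its copies is uncertain, and the result for the sum of them is given beside that for NCF1.

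Promoters of CYBB and NCF1 are shown because these were the subunits that rose. The RefSeq table (GRCh38.p14) held the promoters of 3 of the 5 subunits (CYBB, CYBA and NCF1), each 250 bases before and 50 after the start, in the direction of the gene. Capitals mark matches to the PU.1 core GAGGAA, searched on both strands, which here reads TTCCTC. Both lie on the plus strand, CYBB at chrX:37779809-37780108 and NCF1 at chr7:74773761-74774060.
CYBB: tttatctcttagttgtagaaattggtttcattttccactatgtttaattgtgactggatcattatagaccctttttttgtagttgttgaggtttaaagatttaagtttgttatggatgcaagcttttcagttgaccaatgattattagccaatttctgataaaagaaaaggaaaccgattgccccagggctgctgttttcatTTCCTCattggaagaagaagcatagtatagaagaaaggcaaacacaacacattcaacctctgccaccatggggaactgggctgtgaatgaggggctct
NCF1: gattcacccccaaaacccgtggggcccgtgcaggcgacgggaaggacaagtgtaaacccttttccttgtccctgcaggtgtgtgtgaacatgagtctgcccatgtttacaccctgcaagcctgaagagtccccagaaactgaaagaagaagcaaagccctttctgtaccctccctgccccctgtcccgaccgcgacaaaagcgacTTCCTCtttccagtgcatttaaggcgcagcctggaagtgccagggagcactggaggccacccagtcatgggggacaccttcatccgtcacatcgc
The CYBB and NCF1 windows each held 1 match and the CYBA window held 0, while 27.9% of all 35116 promoters of this length held at least 1. The CCAAT box (CCAAT, both strands) was matched 4 times in CYBB and 0 times in CYBA and NCF1, against 34.6% of all promoters. The nuclear receptor core motif (AGGTCA, both strands) was not matched in any of the 3 windows and occurred in 13.8% of all promoters. The CYBB window was 37.7% GC and those of NCF1 and CYBA were 57.3% and 72.7%. These matches describe letters in a window and say nothing of binding.

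Per kilobase of merged exons, NCF1 had the lowest value of the subunits in untreated cells. The group means of the untreated libraries were 2082 normalized counts per kilobase for NCF4, 2005 for CYBA, 1931 for RAC2 and 1488 for CYBB, and 268 for NCF1. In the AM80 combination, NCF1 stood at 1111 per kilobase. All these values divide by the merged exons of every annotated transcript. These are 4423 bases for CYBB, 3357 for CYBA, 1759 for NCF4, 2532 for RAC2 and 3462 for NCF1. The main transcript of a gene can be much shorter, as in NCF1 with 1396 bases, so the order of the subunits is uncertain. The NCF1 values also leave out the reads counted on NCF1C.

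**Figure D1:**
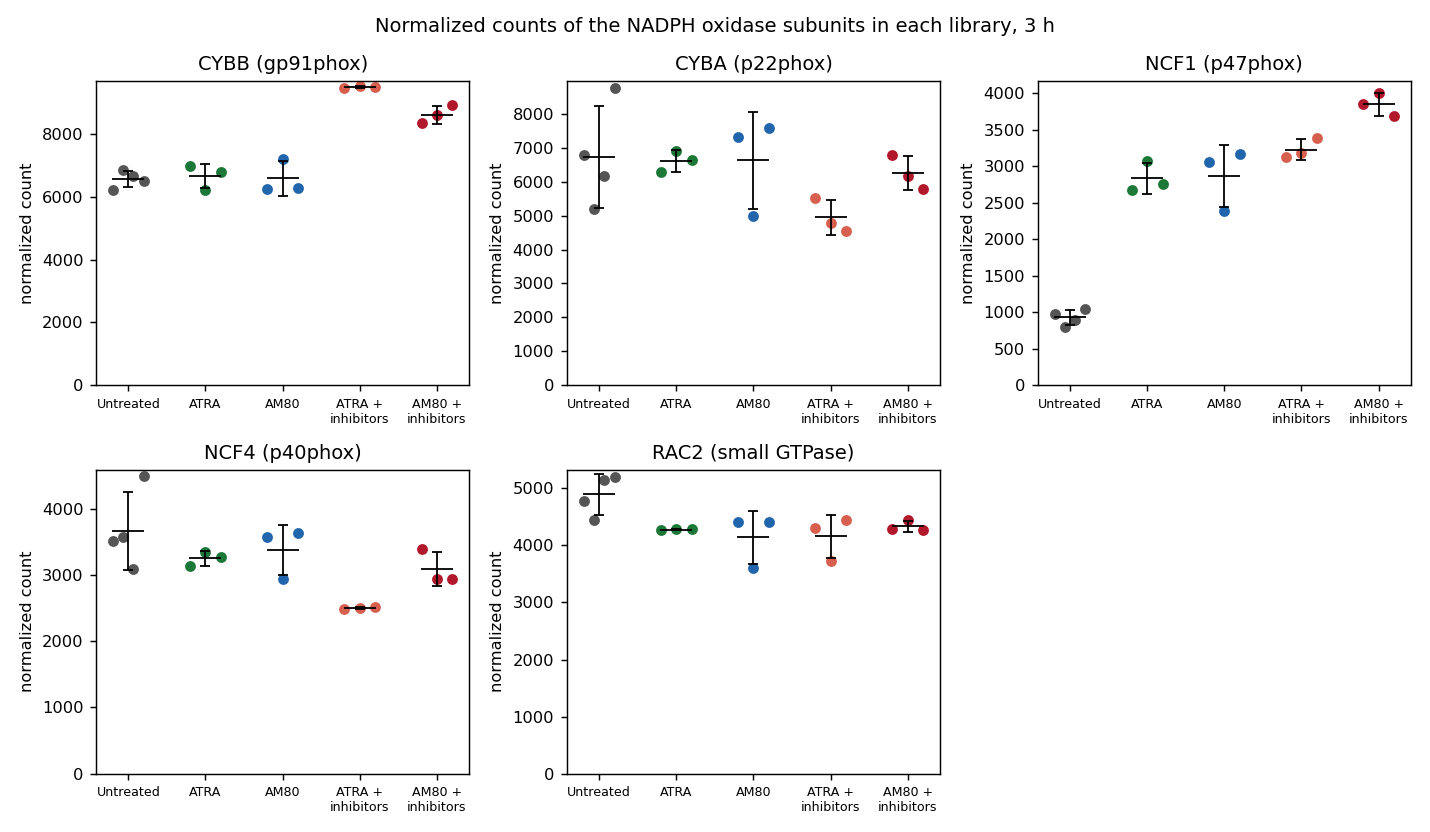
Normalized count (linear axis from 0) of each subunit in every library, by group; points are libraries, long bars group means and error bars 1 SD. NCF1 rose from 801 to 1045 in the untreated libraries to 2381 to 4002 in treated ones, and CYBB was at 8355 or more only in the 2 combinations.

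Changes were tested with limma on log2(normalized count + 1) over all 16 libraries, with p-values adjusted by Benjamini-Hochberg over 14643 genes in each comparison and a gene called at an adjusted p under 0.05. With ATRA alone 1 of the 5 subunits was called, next to 24.6% of all genes tested. With AM80 alone 2 were called, next to 28.8%. Against untreated cells all 5 were called in the ATRA combination (60.2% of all genes) and 3 in the AM80 combination (54.7%). On adding the inhibitors, 3 were called beside ATRA (49.3%) and 2 beside AM80 (39.5%). The median log2 change over the subunits was -0.24 in the ATRA combination and -0.08 in the AM80 combination against untreated cells, while the median over all genes was -0.0030 and -0.0029.

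NCF1, the organiser that carries the complex to the membrane, had the largest change of the subunits with either retinoid. The untreated libraries held 973, 801, 898 and 1045 normalized counts. The ATRA libraries held 2671, 3073 and 2753, and the AM80 libraries 3056, 2381 and 3161. Every treated library lay above every untreated one, and the values of ATRA and AM80 overlapped. The mean rose from 929 ± 105 (SD, n = 4) to 2832 ± 212 (SD, n = 3) with ATRA, a 3.05-fold change (log2 1.61, SE 0.09, limma adjusted p = 1.62e-11), and to 2866 ± 423 (SD, n = 3) with AM80, a 3.07-fold change (log2 1.62, SE 0.09, limma adjusted p = 1.51e-11). Over all alternatives, the log2 change lay between 1.54 and 1.67 for ATRA and between 1.54 and 1.75 for AM80.

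With the inhibitors, NCF1 reached its highest values. The ATRA combination held 3125, 3175 and 3384 normalized counts (mean 3228 ± 137, SD, n = 3). The AM80 combination held 3854, 4002 and 3686 (mean 3848 ± 158, SD, n = 3). Neither group overlapped its retinoid alone. The fold change over untreated cells was 3.49 (log2 1.80) in the ATRA combination and 4.15 (log2 2.05) in the AM80 combination. Adding the inhibitors to AM80 raised NCF1 1.35-fold (log2 0.44, 95% interval 0.23 to 0.64, limma adjusted p = 0.00163). Adding them to ATRA gave a log2 difference of 0.19 (interval -0.02 to 0.40, limma adjusted p = 0.121), which was not called, although the fit of the compared groups alone called it at the same size. The difference between these 2 additions was 0.24 (interval -0.05 to 0.54, limma adjusted p = 0.409).

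The pseudogene rows moved with NCF1. NCF1C held 591 to 788 normalized counts in the untreated libraries, 1846 to 2092 with ATRA and 1572 to 2283 with AM80. It rose 2.97-fold with ATRA (limma adjusted p = 4.11e-10) and by 1.59 on the log2 scale with AM80 (limma adjusted p = 3.40e-10), and 1.34-fold on adding the inhibitors to AM80 (limma adjusted p = 0.00807). In every library NCF1 took between 57.01% and 61.13% of the reads of NCF1 and NCF1C together. NCF1B has 2 rows. The larger one (ENSG00000290838.1, not in GENCODE 29) held 6.97 to 15.5 normalized counts in untreated cells and averaged 38.3 with ATRA and 37.6 with AM80, and the smaller one (ENSG00000182487.13) had at most 2.77 in any untreated library. With the reads of NCF1, NCF1B and NCF1C summed, the log2 change was 1.60 with ATRA and 1.61 with AM80, and 0.17 and 0.44 on adding the inhibitors to ATRA and to AM80, the former again not called. Which of these loci the reads came from cannot be told apart with this table.

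**Figure D2:**
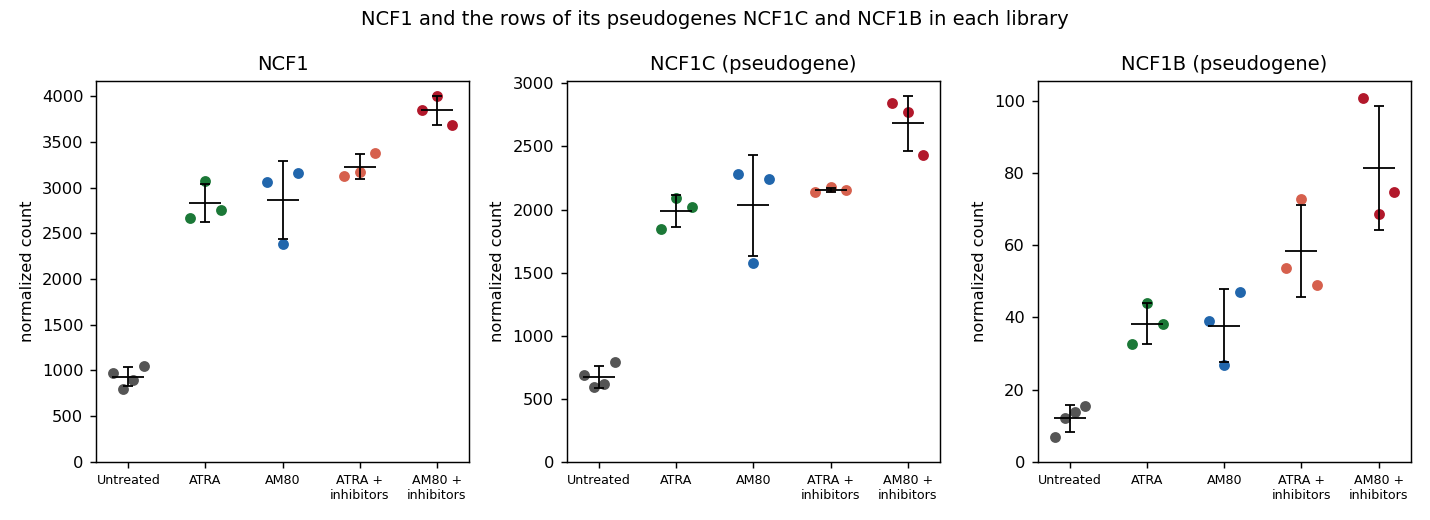
Normalized counts (linear axes from 0, each with its own scale) of NCF1, NCF1C and the larger NCF1B row in each library by group; points are libraries, long bars group means and error bars 1 SD. All 3 rows were lowest in the untreated libraries and highest on average in the AM80 combination, with means of 3848, 2684 and 81.4.

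CYBB, the catalytic chain, was not called with either retinoid and rose when the inhibitors were present. It lies at chrX:37780011-37813461. The untreated libraries held 6242, 6871, 6687 and 6519 normalized counts. The ATRA libraries held 6983, 6236 and 6797, and the AM80 libraries 6269, 7230 and 6286. These 3 groups overlapped, and the log2 difference from untreated cells was 0.02 (interval -0.11 to 0.15) for ATRA and 0.00097 (interval -0.13 to 0.13) for AM80, neither called.

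In the ATRA combination CYBB held 9499, 9531 and 9516 normalized counts. The AM80 combination held 8355, 8625 and 8927. Every combination library lay above each of the other 10. The rise on adding the inhibitors was 1.43-fold beside ATRA (log2 0.51, SE 0.07, limma adjusted p = 4.07e-06) and 1.31-fold beside AM80 (log2 0.39, SE 0.07, limma adjusted p = 0.000106). All other fits kept these calls, although neither change reaches a fold of 1.5, with log2 changes of 0.29 to 0.55 beside ATRA and 0.23 to 0.46 beside AM80. Over untreated cells the rise was 1.45-fold (log2 0.53) in the ATRA combination and 1.31-fold (log2 0.39) in the AM80 combination. These rises were also called in all other fits but were smaller in some, 0.27 with the GC trend removed for the ATRA combination and 0.15 after quantile normalization for the AM80 combination.

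CYBA, the membrane partner at chr16:88643283-88651152, was called lower only with the ATRA combination. The untreated libraries held 6794, 5199, 6177 and 8758 normalized counts. The ATRA libraries held 6284, 6914 and 6651, and the AM80 libraries 7335, 4994 and 7593. The spread among untreated libraries was the widest of any group (SD 1502), and AM80 replicate 2 lay below the other AM80 libraries. The ATRA combination held 5527, 4783 and 4545, below all ATRA libraries but overlapping the untreated ones, and the AM80 combination held 6789, 6170 and 5791.

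The log2 change of CYBA in the ATRA combination was -0.42 against untreated cells (interval -0.71 to -0.13, limma adjusted p = 0.0136) and -0.42 against ATRA (interval -0.73 to -0.11, limma adjusted p = 0.0248). In the AM80 combination it was -0.08 against untreated cells and -0.07 against AM80, neither called. The first call was lost without ATRA combination replicate 3 (-0.36). The second was lost without replicate 2 (-0.40) or 3 (-0.36) of the ATRA combination, without replicate 2 (-0.39) or 3 (-0.42) of ATRA, and with DESeq2 (-0.42).

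NCF4 (p40phox), a cytosolic subunit, was lower in the ATRA combination. It lies at chr22:36860988-36878015, and the antisense gene NCF4-AS1 overlaps its exons but held 75 reads in all libraries together, against 53701 for NCF4. The untreated libraries held 3514, 3569, 3081 and 4485 normalized counts. The ATRA libraries held 3129, 3347 and 3274, and the AM80 libraries 3567, 2943 and 3628. The ATRA combination held 2485, 2501 and 2518, below every other library, and the AM80 combination 3392, 2944 and 2942.

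The log2 change of NCF4 was -0.54 against untreated cells (SE 0.10, limma adjusted p = 7.39e-05) and -0.38 against ATRA (SE 0.10, limma adjusted p = 0.00496) in the ATRA combination. With ATRA or AM80 alone it was -0.16 and -0.11, neither called. In the AM80 combination it was -0.23 against untreated cells (limma adjusted p = 0.0460) and -0.12 against AM80, the latter not called. The call against untreated cells was lost in 11 of 16 fits that each left out 1 library, among them untreated replicate 4 (log2 change -0.13 without it), AM80 combination replicate 2 (-0.20) and replicate 3 (-0.20).

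RAC2, the GTPase, at chr22:37225261-37244448, showed small falls against untreated cells, and whether they were called depended on single libraries. The direction against untreated cells was kept in every fit that left out 1 library. The untreated libraries held 4778, 4442, 5152 and 5190 normalized counts. The ATRA libraries held 4273, 4278 and 4281, and the AM80 libraries 4400, 3604 and 4407. Each untreated library lay above each library of the retinoids alone. The ATRA combination held 4302, 3731 and 4441, below the untreated libraries, and the AM80 combination held 4280, 4444 and 4267, overlapping them by 1 library.

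RAC2 was called lower with AM80 (log2 -0.24, limma adjusted p = 0.0210) and in the ATRA combination (log2 -0.24, limma adjusted p = 0.0126). With ATRA the log2 difference was -0.19 (limma adjusted p = 0.0789) and in the AM80 combination -0.17 (limma adjusted p = 0.0644). Without AM80 replicate 2 the AM80 call was lost (-0.15), and it was lost without untreated replicate 3 (-0.22). Without ATRA combination replicate 2 that call was lost (-0.16). Without AM80 replicate 2 or untreated replicate 2, RAC2 was called with ATRA (-0.19 and -0.24) and in the AM80 combination (-0.17 and -0.22). On adding the inhibitors RAC2 differed by -0.04 beside ATRA and 0.07 beside AM80, neither called.

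**Figure D3:**
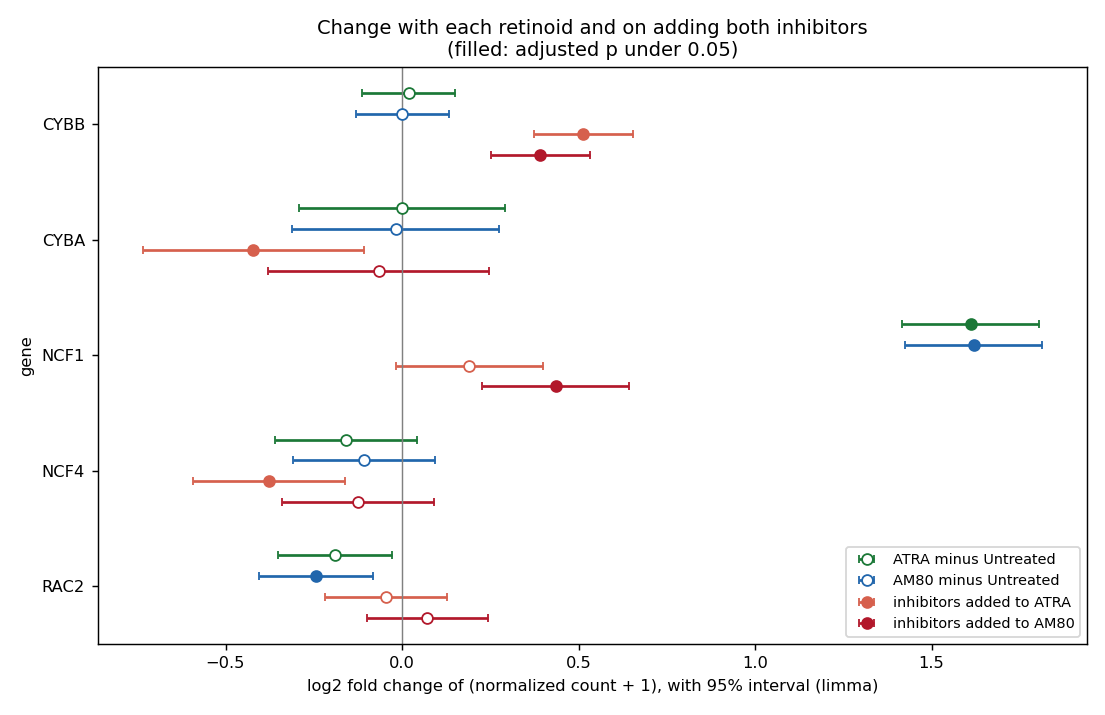
Log2 fold change (limma) with 95% interval for the 5 subunits, with each retinoid against untreated cells and on adding both inhibitors to each retinoid; filled points have an adjusted p under 0.05. NCF1 stands near 1.6 with both retinoids, and the interval of CYBB lies above 0 only on adding the inhibitors.

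Over all genes tested, the median change on adding the inhibitors fell with the GC content of the transcripts. From the deposited values, the log2 changes beside ATRA were 0.51 for CYBB, -0.42 for CYBA, 0.19 for NCF1, -0.38 for NCF4 and -0.04 for RAC2. Beside AM80 they were 0.39, -0.07, 0.44, -0.12 and 0.07 in the same order. CYBB is 40.9% GC, while CYBA (61.3%), NCF1 (64.0%) and NCF4 (58.5%) lie in the top quintile of the tested genes, which begins at 57.9%, and RAC2 is 57.4%. Over all genes tested, the median log2 change on adding the inhibitors to ATRA was 0.29 in the quintile with the lowest GC content and -0.39 in the quintile with the highest. Beside AM80 these medians were 0.09 and -0.11. The retinoids alone against untreated cells also showed such a trend, with medians of 0.013 and -0.091 for ATRA and 0.117 and -0.155 for AM80. The part of GC content in the subunits' changes was not tested.

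The trend on GC content was also removed within each library, a choice made once the values were known. The rise of NCF1 with the retinoids was then 1.59 for ATRA and 1.70 for AM80 on the log2 scale. CYBB still rose on adding the inhibitors, by 0.29 beside ATRA and 0.32 beside AM80. The falls on adding the inhibitors to ATRA were -0.04 for CYBA and -0.08 for NCF4, and were no longer called. NCF1 then rose on adding the inhibitors to either retinoid, by 0.66 beside ATRA and 0.60 beside AM80, both called. RAC2 turned to a called rise of 0.23 beside ATRA. Beside AM80 its difference, already 0.07 from the deposited values, became 0.16. Against untreated cells, the ATRA combination kept the call of NCF4 (-0.29) and lost those of CYBA (-0.08) and RAC2 (-0.03).

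**Figure D4:**
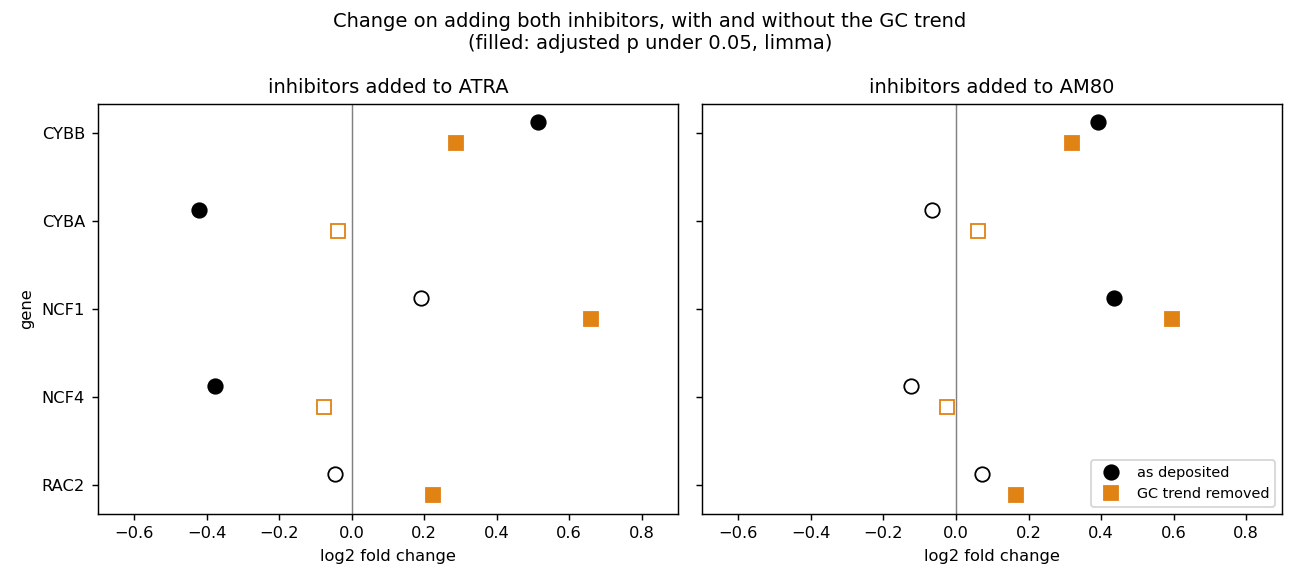
Log2 fold change of the 5 subunits on adding both inhibitors to ATRA (left) and to AM80 (right), from the deposited values (circles) and with the GC trend removed from each library (squares); filled marks have a limma adjusted p under 0.05. CYBB stays above 0 in both, the falls of CYBA and NCF4 beside ATRA move to -0.04 and -0.08, and NCF1 beside ATRA moves from 0.19 to 0.66.

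AM80 and ATRA, 2 retinoids of different structure given at the same dose and time, were compared directly in 2 pairs. Without inhibitors 0 of the 5 subunits were called by limma, edgeR or DESeq2, and 0 had an unadjusted p under 0.05. Across all genes limma called 0.239%, edgeR 88 of 14643 and DESeq2 342 of 10746. The difference of AM80 from ATRA was -0.02 for CYBB (interval -0.16 to 0.12), -0.02 for CYBA (-0.33 to 0.29), 0.0086 for NCF1 (-0.20 to 0.22), 0.05 for NCF4 (-0.16 to 0.27) and -0.05 for RAC2 (-0.23 to 0.12). The interval was widest for CYBA.

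With inhibitors 0 of the 5 were called by limma, edgeR or DESeq2, and 3 had an unadjusted p under 0.05 (CYBA, NCF1 and NCF4). Limma called 0% of all genes in this comparison, with 2656 at an unadjusted p under 0.05. EdgeR called 0 of 14643 genes and DESeq2 109 of 10010. In 4 subunits the libraries of the combinations did not overlap, as in 30.2% of all genes tested. The AM80 combination was higher for CYBA (0.34, interval 0.03 to 0.65), NCF1 (0.25, 0.05 to 0.46) and NCF4 (0.30, 0.09 to 0.52) and lower for CYBB (-0.14, -0.28 to 0.00019). RAC2 differed by 0.06 (-0.11 to 0.23). The fit of only these groups called CYBA, NCF1 and NCF4, next to 1975 of the 14643 genes tested. NCF4 was also called without untreated replicate 4 (0.30). With the GC trend removed the differences were 0.16, 0.04, 0.17, -0.05 and -0.05 for CYBA, NCF1, NCF4, CYBB and RAC2, none of them called. Genes in the quintile with the highest GC content were higher in the AM80 combination by a median of 0.19. The interaction of retinoid and inhibitors was called for 0 of the subunits by limma, edgeR or DESeq2, with 0 at an unadjusted p under 0.05. Over all genes it was called for 0% by limma, 0 of 14643 by edgeR and 27 of 9273 by DESeq2.

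In the order of the group means, NCF1 rose from untreated through ATRA, AM80 and the ATRA combination to the AM80 combination. Untreated and ATRA differed beyond their spread, while the steps between ATRA, AM80 and the ATRA combination had intervals that included 0. The interval between the combinations, not adjusted for the number of genes, was 0.05 to 0.46, and the difference was not called (limma adjusted p = 0.207). For CYBB, the untreated, AM80 and ATRA groups could not be separated, and the step from ATRA to the AM80 combination was 0.37 (interval 0.23 to 0.51). For CYBA and NCF4 the ATRA combination was lowest and the AM80 combination next. The unadjusted interval of that step lay above 0 but the step was not called (limma adjusted p = 0.248 for CYBA and 0.171 for NCF4), and no further step between neighbours had an interval above 0. For RAC2 only the step from the AM80 combination to the highest group, untreated, had an interval above 0 (0.01 to 0.33), and it was not called.

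Among 11296 genes whose mean normalized count was 50 or more, those whose group means were most like NCF1 included NCF1C (root mean square difference of the centred log2 means 0.04) and MYADM, a membrane protein of myeloid cells (0.07). Only 0.0708% of these genes lay within 0.1 of NCF1. The other subunits had many such neighbours, 7.37% for CYBB (nearest SRRM1, KPNA4 and XPR1), 6.23% for CYBA (STK16, PHGDH and FRMD8), 7.40% for NCF4 (POLR2L, ALYREF and FPGS) and 11.8% for RAC2 (PIAS3, DHRS7 and ACSF3). Likeness was measured over the 5 group means as a distance that was not scaled to the size of a gene's change. The shares within 0.1 therefore depend on that size and do not show a pattern particular to NCF1. The split of reads between NCF1 and NCF1C is uncertain.

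Of the partners, CYBC1, the chaperone that helps the membrane chains mature, was lower with AM80 and fell further when the inhibitors were added. Its mean was 3470 ± 184 (SD, n = 4) in untreated cells, 3010 ± 187 (SD, n = 3) with ATRA and 2747 ± 345 (SD, n = 3) with AM80. The log2 change from untreated cells was -0.21 with ATRA (limma adjusted p = 0.0566), which was not called, and -0.34 with AM80 (limma adjusted p = 0.00176). The means were 2111 ± 136 (SD, n = 3) in the ATRA combination and 2272 ± 75.9 (SD, n = 3) in the AM80 combination, log2 changes of -0.51 from ATRA and -0.27 from AM80 (limma adjusted p = 4.02e-05 and 0.0137). RAC1, the close relative of RAC2, rose by 0.30 and 0.15 on adding the inhibitors to ATRA and AM80 (limma adjusted p = 0.000143 and 0.0403). RAP1A, a GTPase found with the oxidase membrane chains, rose by 0.41 beside ATRA (limma adjusted p = 0.000132), and its difference of 0.11 beside AM80 was not called. Against untreated cells RAP1A was already called higher with AM80 alone (0.20, limma adjusted p = 0.0344) but not with ATRA alone (-0.05). It was called higher in the ATRA combination (0.36) and in the AM80 combination (0.31). HVCN1, the proton channel that balances the charge, was at 131 to 164 in the group means and was not called against untreated cells or on adding the inhibitors.

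Other NADPH oxidases were at low levels or had no read. Of 11 rows for the NOX and DUOX enzymes and their partners, 3 passed the filter (NOX1, DUOX1 and NOXA1), with group means between 7.61 and 19.2 normalized counts, and NOX4 had no read in any library. Of these, only DUOX1 was called, and only on adding the inhibitors to ATRA, where it fell by 1.31 on the log2 scale (limma adjusted p = 0.00483).

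Among kinases, phospholipase and RAC regulators that act on the oxidase, 20 of 21 were tested, and 11 were called with ATRA (3 higher) and 8 with AM80 (3 higher), against 24.6% and 28.8% of all genes. On adding the inhibitors, 14 were called beside ATRA (10 higher) and 11 beside AM80 (7 higher), against 49.3% and 39.5% of all genes. PLA2G4A, the phospholipase that releases arachidonic acid, fell by 0.95 with ATRA and by 0.79 with AM80 and rose by 0.74 and 0.56 when the inhibitors were added, with a mean of 702 ± 38.4 (SD, n = 4) in untreated cells. PREX1, which activates RAC2, rose by 0.44 and 0.37 with the retinoids and fell by 0.42 and 0.21 with the inhibitors. PIK3CD, a lipid kinase of leukocytes, fell by 0.87 and 0.75 on adding the inhibitors, and PRKCD, a kinase that phosphorylates NCF1, fell by 0.62 and 0.64. The limma adjusted p of each named change was at most 0.0172.

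Among transcription factors described at the oxidase gene promoters, 17 of 18 were tested, and 8 were called with ATRA (4 higher) and 5 with AM80 (2 higher), against 24.6% and 28.8% of all genes. On adding the inhibitors, 8 were called beside ATRA (3 higher, 5 lower) and 10 beside AM80 (4 higher, 6 lower). The shares of all genes were 49.3% and 39.5%. IRF1, an activator of CYBB transcription after interferon, had means of 469 ± 24.5 (SD, n = 4) in untreated cells and 2156 ± 4.79 (SD, n = 3) with ATRA, and it rose by 2.20 with ATRA and 2.15 with AM80 and fell by 0.54 and 0.41 on adding the inhibitors. CEBPB, a factor of myeloid maturation, rose by 1.54 and 1.55. GATA2, a factor of early progenitors, fell by 0.83 and 0.98. CREBBP, a histone acetyltransferase, rose by 0.63 and 0.86 on adding the inhibitors. SPI1, the gene of PU.1, had lower means with the inhibitors. They were 4576 with ATRA and 3086 in the ATRA combination, and 4663 with AM80 and 3481 in the AM80 combination.

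Of 20 rows for receptors that trigger the oxidase 15 were tested. FPR1, the receptor for formyl peptides of bacteria, rose by 1.21 and 1.18 on adding the inhibitors to ATRA and AM80, from group means of 20.8 and 24.2 normalized counts. TLR2 fell by 0.84 and 0.86 with the retinoids, and ITGAM, which encodes CD11b, rose by 0.55 and 0.70. IFNGR1 rose by 0.32 and 0.53 with the retinoids and by 0.61 and 0.35 with the inhibitors.

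Of 10 genes that handle superoxide and hydrogen peroxide, 3 were called with each retinoid, against 24.6% of all genes for ATRA and 28.8% for AM80. On adding the inhibitors 5 were called beside ATRA and 6 beside AM80, against 49.3% and 39.5%. PGD, an enzyme of the pentose phosphate pathway that supplies NADPH, rose by 1.01 on adding the inhibitors to ATRA, from 2257 ± 28.8 to 4549 ± 270 (SD, n = 3 each), and by 1.14 on adding them to AM80, from 2395 ± 94.4 to 5271 ± 135 (SD, n = 3 each). In untreated cells its mean was 1995 ± 106 (SD, n = 4). PRDX1 rose by 0.62 and 0.70 and SOD1 by 0.39 and 0.56, while GPX1 fell by 0.66 and 0.48.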

How the data were processed

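RNA of 16 OCI-AML3 libraries was sequenced. Kits differ between the labels (NucleoSpin RNA, NEBNext Ultra II DNA) and the study's methods (ZR RNA MiniPrep, TruSeq Stranded mRNA, 51-base single-end reads). The submitters' processing notes name FastQC, cutadapt, STAR, featureCounts and DESeq2, with versions, genome build and strand setting not given in the sources used here. The signal values deposited by the authors are counts per gene divided by a DESeq2 size factor. Multiplied back by its factor, 100% of the values came out whole within 0.001 reads, so reads were recovered for the alternatives with a count model, and depth was 11963898 to 33789718 reads. Of 62700 identifiers, 62700 had a symbol, and coordinates, exon lengths and GC content came from GENCODE 29 (GRCh38), matched without version numbers.

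On the scale log2(normalized count + 1), 14643 genes of mean 10 or more were fitted with limma 3.58.1 (trend, 1 coefficient per group, all libraries, R 4.3.3) and p-values adjusted by Benjamini-Hochberg within each of 9 comparisons: each retinoid and each combination against untreated cells, each combination against its own retinoid, the retinoids against each other in either setting, and their interaction with the inhibitors. Genes with an adjusted p under 0.05 were called, with no limit on the fold change. Of 18 pairs of replicates, none was close enough to count as 1 library (chi-square per degree of freedom 2.55 to 22.7).

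Alternatives were pseudocounts of 0.5 and 5, no filter, a filter at a mean of 50, quantile normalization, the compared groups only, edgeR 4.0.16 (quasi-likelihood, TMM), DESeq2 1.42.0, a replicate block, each library left out, a fold of at least 1.5, and NCF1 summed with NCF1B and NCF1C. A GC trend (spline, 5 degrees of freedom, values for 97.61% of tested genes) and scaling to total reads were added after the data were seen. The methods were tested on simulated data. Some genes of the lists are not reported here. Named were the subunits, their partners, and up to 4 genes per list with the largest change among those called alike with both retinoids, or on adding the inhibitors to both, and a mean of at least 50 in the highest group. SPI1 was named outside this rule, because the PU.1 core was searched. The members and lists were chosen with earlier results of these data known. Sequences were aligned with Biopython 1.88.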

Additional observations from a re-analysis of the deposited data

How the results depend on the processing

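The rise of NCF1 with each retinoid kept direction and call under every alternative run. The rise of CYBB on adding the inhibitors and the fall of NCF4 in the ATRA combination against untreated cells did so under all but the fold limit of 1.5. The subunits had at least 698 reads in each library. For results that changed, the cause was not tested.

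The number of subunits called with ATRA (1) was 2 after quantile normalization and 3 with the GC trend removed, and 1 to 2 with a library left out. With AM80 (2) it was 1 without the filter and 1 to 2 with a library left out. With only the compared groups it was 1, next to 2957 of 14643 genes. In the ATRA combination against untreated cells (5) it was 3 with the GC trend removed. In the AM80 combination against untreated cells (3) it was 4 with edgeR (7813 of 14643 genes) and 2 with DESeq2 (7569 of 20310 genes). It was 2 to 4 there with a library left out. Between the combinations (0) it was 3 with only the compared groups (1975 of 14643 genes), and 0 to 1 with a library left out. Asking for a fold of at least 1.5 gave 1 with AM80, 1 in each combination against untreated cells, and 0 on adding the inhibitors to either retinoid. For the other settings named here, the share of all genes called is not given.

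Of 30 pairs of same-numbered replicates, 4 had a correlation of deviations over 0.1, in a range of -0.112 to 0.187. Pairs with different numbers were not set beside them, so whether the numbers mark a pairing is not settled. The replicate block leaves untreated replicate 4 without a partner and so drops it from these contrasts. It gave 1 subunit called between the combinations (NCF4), next to 690 of 14643 genes. It turned the sign of CYBA with ATRA (0.14), with AM80 (0.12) and in the AM80 combination against untreated cells (0.051), and of CYBB with AM80 (-0.00319), none of them called, and it lost the call of NCF4 in the AM80 combination (-0.13).

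Other turns of sign, all but one of values not called, were these log2 changes. Quantile normalization gave -0.035 and -0.081 for CYBB with ATRA and AM80, -0.074 for RAC2 on adding the inhibitors to AM80, and -0.014 for NCF1 between AM80 and ATRA. Scaling to total reads gave -0.060 for CYBB with AM80, -0.052 for RAC2 on adding the inhibitors to AM80, and -0.050 for NCF1 and -0.0086 for NCF4 between AM80 and ATRA. The median of all genes was then -0.15 and -0.19 in the ATRA and AM80 combinations. Removing the GC trend gave -0.017 and -0.097 for CYBB with ATRA and AM80, and 0.025 and 0.086 for CYBA with AM80 and in the AM80 combination. It gave 0.23 for RAC2 on adding the inhibitors to ATRA, which was called. It gave 0.061 for CYBA on adding the inhibitors to AM80, 0.064 for CYBA and 0.0077 for RAC2 between AM80 and ATRA, -0.053 for RAC2 between the combinations, and 0.032, -0.062 and -0.061 for CYBB, NCF1 and RAC2 in the interaction. For CYBA between AM80 and ATRA edgeR gave 0.015 and DESeq2 0.0051.

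With 1 library left out, the change with ATRA ranged from -0.014 to 0.067 for CYBB and -0.12 to 0.14 for CYBA, and with AM80 from -0.067 to 0.036 and -0.13 to 0.17. In the AM80 combination against untreated cells CYBA ranged from -0.20 to 0.051. On adding the inhibitors, RAC2 ranged from -0.094 to 0.031 beside ATRA and -0.025 to 0.12 beside AM80, and CYBA from -0.26 to 0.043 beside AM80. Between AM80 and ATRA the ranges were -0.086 to 0.017 (CYBB), -0.13 to 0.17 (CYBA), -0.068 to 0.14 (NCF1), -0.0039 to 0.15 (NCF4) and -0.10 to 0.042 (RAC2), and between the combinations -0.014 to 0.11 for RAC2.

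Of the lists, a mean of at least 50 gave 2 partner rows called with ATRA, as that filter removed both rows of NCF1B. The main fit called 4 of 8, next to 24.6% of all genes. The pseudogene rows of NCF1C and NCF1B were among these, and CYBC1, RAC1, RAP1A and HVCN1 were not. For the other oxidases the higher filter gave 0 in place of 1 on adding the inhibitors to ATRA. Their group means were at most 19.2, so the filter left none of them to test. With edgeR 1 other oxidase was called in the ATRA combination against untreated cells, next to 8760 of 14643 genes. A fold of at least 1.5 lowered the counts, and the share of all genes called at that fold is not given here. The partners called on adding the inhibitors were then 1 beside ATRA and 3 beside AM80. Without the fold limit they were 4 and 6 of 8, next to 49.3% and 39.5% of all genes. The partners called beside AM80 included both NCF1B rows in either case, and NCF1C without the fold limit. In the order ATRA, AM80, ATRA combination and AM80 combination against untreated cells, then the inhibitors added to ATRA and AM80, the activation list gave 1, 1, 2, 2, 3 and 2, the receptors 2, 3, 4, 4, 3 and 2, and the peroxide genes 0, 0, 3, 1, 3 and 2. The transcription factors gave 3, 3 and 8 with ATRA, with AM80 and in the AM80 combination, and 2 and 5 on adding the inhibitors.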
